A study of Homo sapiens with 8 samples.

Results

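The FOXO transcription factors FOXO1, FOXO3 and FOXO4 and 7 genes known as their targets (CCNG2, IRS2, PIK3IP1, TXNIP, SESN3, CITED2 and BCL6) are described here in 2 human liver cancer cell lines, with and without the EZH2 inhibitor GSK343. The set was chosen on the CCNG2 values, which were higher with GSK343 in both lines, so the changes under treatment are given as a description without p-values. Members were found as all probes that carried a member's symbol, or an older alias of it, and no other symbol. This gave 12 probes of the 31741 on the array, for 9 of the 10 members and of 18336 genes measured in all. FOXO3 has no value, since both of its probes also carried the symbol FOXO3B. CCNG2, IRS2 and CITED2 had 2 probes each.

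The comparison holds 4 groups of 2 arrays: HepG2 control, HepG2 with 10 µM GSK343, PLC5 (PLC/PRF/5) control, and PLC5 with 10 µM GSK343. Sample titles and the series design give 16 h of exposure, whereas the treatment protocol gives 6 h of incubation. Both lines were grown in DMEM with heat-inactivated fetal bovine serum, a medium that carries growth factors. The labels name no vehicle for the controls and do not state that paired arrays stem from different cultures. The p-values therefore cover the spread between these arrays, which may be technical. GSK343 blocks EZH2, the enzyme of the Polycomb repressive complex that methylates lysine 27 of histone H3. The arrays measured RNA from whole cultures, in which fewer expressing cells and less RNA per cell cannot be told apart.

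FOXO factors sit at the end of the insulin and growth factor pathway. Insulin receptor substrates pass the signal to PI3-kinase and AKT, and AKT phosphorylates the FOXO proteins, which then bind 14-3-3 proteins and leave the nucleus. When the signal is low, nuclear FOXO switches on genes of cell cycle arrest, stress defence and, in liver, glucose production. The arrays measured neither FOXO protein nor its location.

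Median deposited intensities lay between 226 and 552 over the 8 arrays, and normalized log2 values within a group correlated at 0.984 to 0.989 across probes. Secreted liver proteins separated the lines, though not all in the same direction. ALB, which encodes albumin, had normalized intensities of 140600 and 150800 in HepG2 controls and 706 and 786 in PLC5 controls. AHSG had 70180 and 73410 against 101.5 and 103.9. FGB of the same list went the other way, with 20290 and 19480 in HepG2 controls and 80050 and 88690 in PLC5 controls. SERPINA1 and APOB were lower in PLC5 controls by less, -0.80 and -0.78 on the log2 scale. The summed level of 9 hepatocyte markers was 1162000 to 1285000 in HepG2 and 317700 to 350800 in PLC5. Of the other lists, 4 leukocyte markers summed to 5028 to 6241 in HepG2 and 2031 to 2785 in PLC5. PTPRC and CD3E lay below 64 on all 8 arrays, whereas CD14 and CD68 made up most of the sums. CD14 had 3407 and 4343 in HepG2 controls and 580 and 547 in PLC5 controls, and CD68 had 1975 and 1835 against 1406 and 2187. Between control and GSK343, limma called 1 hepatocyte marker in HepG2, FGB (-0.40 ± 0.09 SE on the log2 scale). It also called 2 of 5 fibroblast or stellate markers there, ACTA2 (0.50 ± 0.11) and PDGFRB (-0.77 ± 0.15). The fibroblast list summed to 21370 and 21920 in HepG2 controls and 28050 and 27540 with GSK343, and to 1710 to 2272 in PLC5. Endothelial markers summed to 1132 to 1799 over the 8 arrays, and cholangiocyte markers to 101100 to 117900 in HepG2 and 8871 to 9260 in PLC5. In PLC5 limma called 0 of the 26 markers, with 3 at an unadjusted p below 0.05. The part of these shifts in the results below was not tested.

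The promoters of all 10 members were found in a RefSeq table (GRCh38.p14), each reaching from 250 bases before a start site to 50 after it. FOXO motifs of 3 kinds and the E-box CACGTG were searched on both strands. Only exact matches were sought, so imperfect forms of these motifs are neither counted nor marked. GTAAACA, the core of the FOXO binding element named after the worm factor DAF-16, occurs in 3 of 18 member promoters, at FOXO4, PIK3IP1 and TXNIP, and in 3.42% of 35116 promoters of this length. ATAAACA occurs in 1 member promoter (FOXO3) and 4.24% of all, CAAAACA of the insulin response element in 1 (IRS2) and 4.92%, and the E-box CACGTG in 2 (CCNG2 and CITED2) and 7.26%. The 5 windows below are shown because CCNG2 chose the set and the other 4 members hold a FOXO motif inside the window. A reader can set these letters beside the measured levels. FOXO3, which has no measured level, is not shown, and its match begins 234 bases before the start site, outside a window of this span. Each runs 5′ to 3′ on the gene's strand over 200 bases, and capitals mark the motif, which stands as its reverse complement in the IRS2 and PIK3IP1 windows. The windows lie at chr4:77157037-77157236 (CCNG2, plus strand), chrX:71095681-71095880 (FOXO4, plus), chr22:31292459-31292658 (PIK3IP1, minus, the downstream of its start sites), chr1:145996550-145996749 (TXNIP, minus) and chr13:109786554-109786753 (IRS2, minus). A match is a run of letters and not a measured binding site.
CCNG2: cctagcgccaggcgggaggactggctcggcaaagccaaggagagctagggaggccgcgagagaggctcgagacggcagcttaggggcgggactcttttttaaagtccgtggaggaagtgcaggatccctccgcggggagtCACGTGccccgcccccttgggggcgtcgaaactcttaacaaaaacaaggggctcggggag
FOXO4: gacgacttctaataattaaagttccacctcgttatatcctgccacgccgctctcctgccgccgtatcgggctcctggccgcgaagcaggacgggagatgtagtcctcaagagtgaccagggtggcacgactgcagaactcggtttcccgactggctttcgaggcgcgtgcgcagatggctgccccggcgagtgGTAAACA
PIK3IP1: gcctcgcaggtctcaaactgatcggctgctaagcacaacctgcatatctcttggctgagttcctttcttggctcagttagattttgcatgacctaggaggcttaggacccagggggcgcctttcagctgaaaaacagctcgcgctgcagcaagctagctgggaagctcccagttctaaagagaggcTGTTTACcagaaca
TXNIP: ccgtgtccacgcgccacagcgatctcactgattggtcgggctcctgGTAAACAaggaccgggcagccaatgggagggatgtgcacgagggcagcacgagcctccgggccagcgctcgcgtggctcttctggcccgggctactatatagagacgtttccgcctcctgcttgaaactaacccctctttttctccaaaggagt
IRS2: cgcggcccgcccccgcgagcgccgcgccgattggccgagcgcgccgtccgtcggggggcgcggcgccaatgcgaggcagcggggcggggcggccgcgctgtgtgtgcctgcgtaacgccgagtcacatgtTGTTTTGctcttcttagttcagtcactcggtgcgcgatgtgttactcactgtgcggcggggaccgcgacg

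CCNG2 encodes cyclin G2, an unconventional cyclin that accumulates when cells leave the cell cycle. Its brighter probe had normalized intensities of 935 and 952 in HepG2 controls and 1625 and 1510 with GSK343. In PLC5 it had 454 and 541 in controls and 1499 and 1636 with GSK343. The treated arrays lay above the controls in both lines, and the treated arrays of the lines overlapped each other. The difference was 0.73 ± 0.13 on the log2 scale in HepG2 (SE, n = 2 arrays a group, 1.66-fold) and 1.66 ± 0.13 in PLC5 (3.16-fold), 0.93 ± 0.19 more in PLC5. The control level in PLC5 minus that in HepG2 was -0.93 ± 0.13 in normalized values and 0.09 without normalization.

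The dimmer CCNG2 probe read differently in HepG2. It had 161 and 202 in HepG2 controls and 181 and 173 with GSK343, and the groups overlapped. In PLC5 it had 146 and 135 in controls and 222 and 233 with GSK343, so the treated arrays again lay above the controls. Its differences were -0.03 ± 0.16 in HepG2, which became 0.41 without normalization, and 0.70 ± 0.16 in PLC5. With the median of both probes the CCNG2 difference was 0.35 in HepG2 and 1.18 in PLC5.

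**Figure D1:**
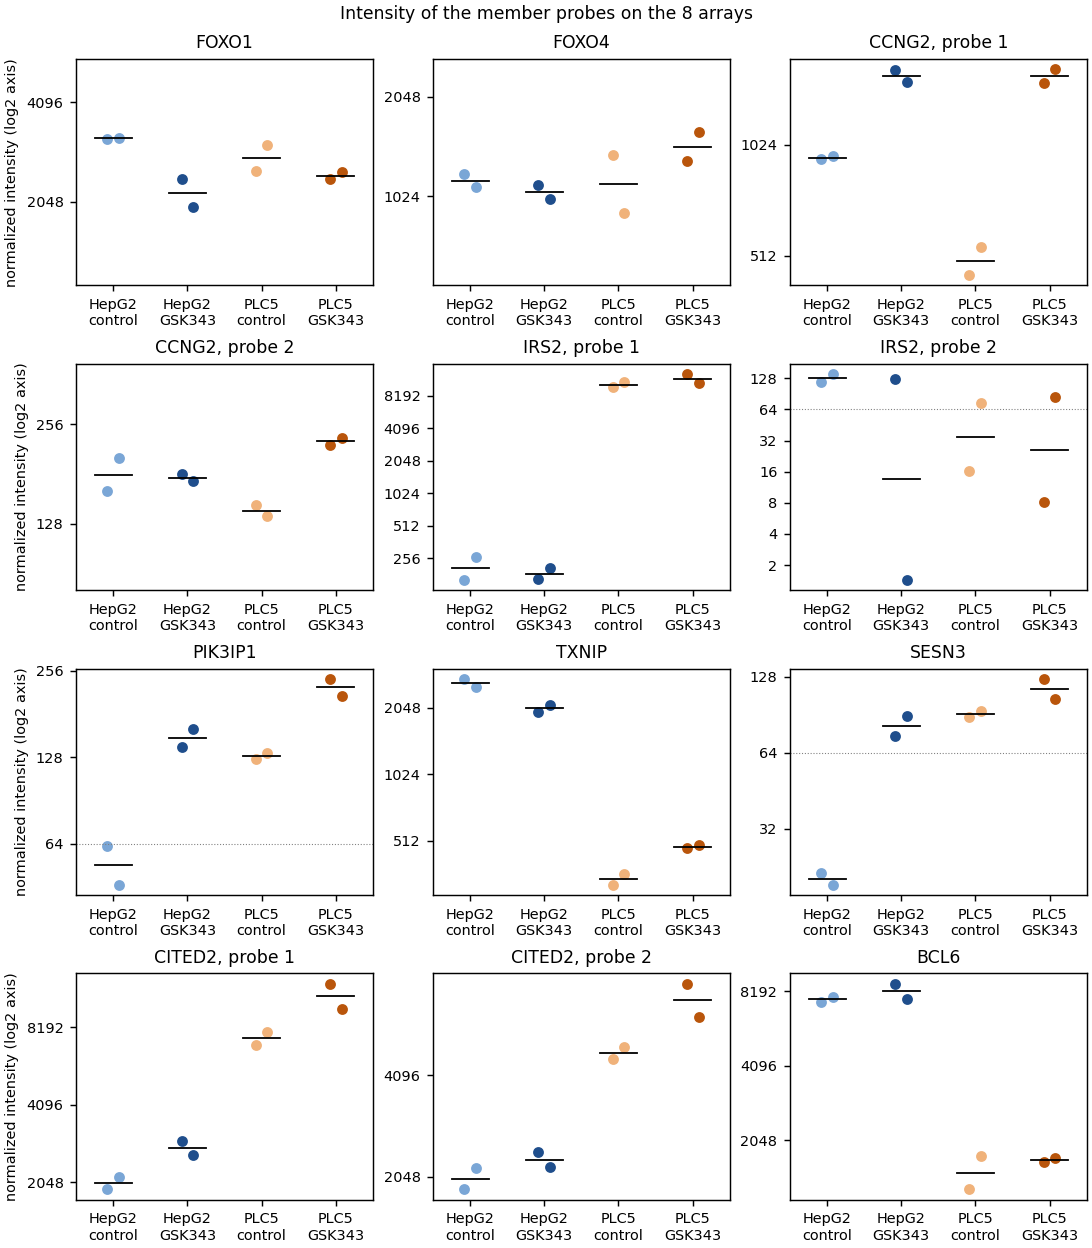
Normalized intensity (log2 axis) of the 12 member probes on each of the 8 arrays, by group. Points are arrays, horizontal lines are group means on the log2 scale and the dotted line marks 64; CCNG2 probe 1 reaches 1499 or more on all 4 treated arrays and stays at 952 or less on all 4 control arrays.

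FOXO1, the FOXO factor best known for driving glucose production in liver, was lower with GSK343 in HepG2. Its intensities were 3179 and 3207 in HepG2 controls and 2409 and 1978 with GSK343. In PLC5 they were 2549 and 3048 in controls and 2399 and 2524 with GSK343. The treated arrays lay below the controls in both lines, in PLC5 by a narrow margin. The differences were -0.55 ± 0.14 in HepG2, which shrank to -0.08 without normalization, and -0.18 ± 0.14 in PLC5. Neither this change (0.37 ± 0.20, adjusted p = 0.377) nor the control level (-0.20 ± 0.14, adjusted p = 0.268) passed the test for a difference between the lines. Without normalization the control difference turned to 0.80 and passed (adjusted p = 0.000879, over alternatives 0.000879 to 0.752).

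FOXO4, a second AKT-regulated FOXO factor, had intensities of 1195 and 1092 in HepG2 controls and 1106 and 1007 with GSK343. PLC5 gave 1368 and 914 in controls and 1306 and 1605 with GSK343. The groups overlapped in both lines, and the PLC5 controls were far apart. The differences were -0.11 ± 0.20 in HepG2 (0.40 without normalization) and 0.37 ± 0.20 in PLC5. FOXO4 did not pass the test for a difference between the lines, in its change (0.49 ± 0.28, adjusted p = 0.403) or in its control level (-0.03 ± 0.20, adjusted p = 0.907). Without normalization the control difference turned to 0.98 and passed (adjusted p = 0.0017, over alternatives 0.0017 to 1.00). FOXO6, the remaining family member, lay between 25.6 and 51.5 on all 8 arrays, below the 64 called dim here.

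Of the targets upstream in the same pathway, IRS2 encodes an adaptor of the insulin receptor and PIK3IP1 a membrane protein that restrains PI3-kinase. The brighter IRS2 probe had 161 and 263 in HepG2 controls and 164 and 208 with GSK343. It had 9748 and 10840 in PLC5 controls and 12930 and 10620 with GSK343. Treated and control arrays overlapped in both lines, whereas every PLC5 array lay far above every HepG2 array. The treatment differences were -0.16 ± 0.23 in HepG2 (0.34 without normalization) and 0.19 ± 0.23 in PLC5, and the difference between them did not pass the test (0.35 ± 0.32, adjusted p = 0.611). PLC5 controls were higher than HepG2 controls by 5.64 ± 0.23 (49.9-fold, adjusted p = 9.03e-08). The other IRS2 probe did not show this line difference: it had 119 and 140 in HepG2 controls and 16.4 and 73.5 in PLC5 controls (-1.90 ± 1.84, adjusted p = 0.413). With the median of both probes the line difference was 1.87 and did not pass the test (adjusted p = 0.105, over alternatives 1.56e-12 to 0.105).

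PIK3IP1 had intensities of 63.0 and 46.1 in HepG2 controls, both in the dim range below 64, and 139 and 161 with GSK343. In PLC5 it had 126 and 133 in controls and 239.9 and 209.7 with GSK343. The treated arrays lay above the controls in both lines. The differences were 1.47 ± 0.20 in HepG2 (1.23 with values floored at 64) and 0.79 ± 0.20 in PLC5. The difference between these changes did not pass the test (-0.68 ± 0.28, adjusted p = 0.26). The control level was higher in PLC5 by 1.26 ± 0.20 (adjusted p = 0.000601).

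SESN3 encodes a sestrin, a stress protein that restrains the growth kinase complex mTORC1. In HepG2 controls its probe was at background, with normalized intensities of 21.4 and 19.25 from deposited values of -3 and 12. With GSK343 it read 74.8 and 89.8 in HepG2, and in PLC5 it read 89.2 and 93.9 in controls and 126 and 104 with GSK343. The HepG2 controls were the only group in the dim range, and treated arrays lay above controls in both lines in normalized values. In PLC5 the deposited values overlapped, at 146 and 75 in controls and 162 and 135 with GSK343. No fold is given for HepG2: its fitted difference ranged from 0.36 with values floored at 64 to 4.41 without normalization, and in PLC5 the difference was 0.32 ± 0.22. No difference between the lines in this change is read either, since its fitted value ran from -0.03 with values floored at 64 to -3.91 without normalization. With that floor the PLC5 controls were above the HepG2 controls by 0.52 (adjusted p = 0.0237, over alternatives 2.85e-05 to 0.0237).

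TXNIP binds thioredoxin and limits glucose uptake. Its probe read 2761 and 2531 in HepG2 controls and 1966 and 2116 with GSK343. It read 325 and 364 in PLC5 controls and 474 and 488 with GSK343. Treated arrays thus lay below the controls in HepG2 and above them in PLC5. The differences were -0.37 ± 0.12 in HepG2, which turned to 0.12 without normalization, and 0.49 ± 0.12 in PLC5. Their difference was 0.86 ± 0.18 and missed the threshold (adjusted p = 0.0725, over alternatives 0.0481 to 0.376). The control level in PLC5 was 0.13 times that in HepG2 (-2.94 ± 0.12, adjusted p = 1.16e-07).

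CITED2 encodes a co-regulator that binds the acetyltransferases CBP and p300. Its brighter probe read 1920 and 2147 in HepG2 controls and 2972 and 2619 with GSK343. It read 7017 and 7826 in PLC5 controls and 12080 and 9630 with GSK343. The 4 groups did not overlap, and each line was higher with GSK343. The differences were 0.46 ± 0.14 in HepG2 and 0.54 ± 0.14 in PLC5, and the difference between them did not pass the test (0.08 ± 0.20, adjusted p = 0.863). The other CITED2 probe had the same order of groups, with differences of 0.19 ± 0.15 and 0.52 ± 0.15. PLC5 controls were higher by 1.87 ± 0.14 at the brighter probe (adjusted p = 6.52e-06) and by 1.23 ± 0.15 at the other (adjusted p = 0.000102).

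BCL6, a transcriptional repressor, read 7451 and 7812 in HepG2 controls and 8800 and 7643 with GSK343. It read 1298 and 1770 in PLC5 controls and 1669 and 1732 with GSK343. Treated and control arrays overlapped in both lines. The differences were 0.10 ± 0.16 in HepG2 and 0.17 ± 0.16 in PLC5, the second turning to -0.06 without PLC5 control 1. BCL6 had a lower control level in PLC5 (-2.33 ± 0.16, adjusted p = 2.58e-06).

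The 2 comparisons of GSK343 with control chose the set, so no calls of members are counted in them. With 1 probe a gene, the median difference of the 9 measured members was 0.10 in HepG2 and 0.37 in PLC5. Over all 18336 genes it was -0.01 in each line.

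In the difference between the lines, limma called 0 of the 9 members. Over all genes, 0.436% were called higher and 0.404% lower. Between the control groups, 4 members (IRS2, PIK3IP1, SESN3 and CITED2) were higher in PLC5 and 3 (CCNG2, TXNIP and BCL6) were lower. The CCNG2 call is not read, since the set was chosen on values that include its control arrays. Its control difference was 0.09 without normalization. The background of that comparison was high, with 26.8% of all genes called higher and 31.6% lower. Normalization set some of these directions, since without it the median of all genes was 0.86 higher in PLC5 than in HepG2 controls, and 0.50 and 0.11 higher with GSK343 in HepG2 and PLC5.

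**Figure D2:**
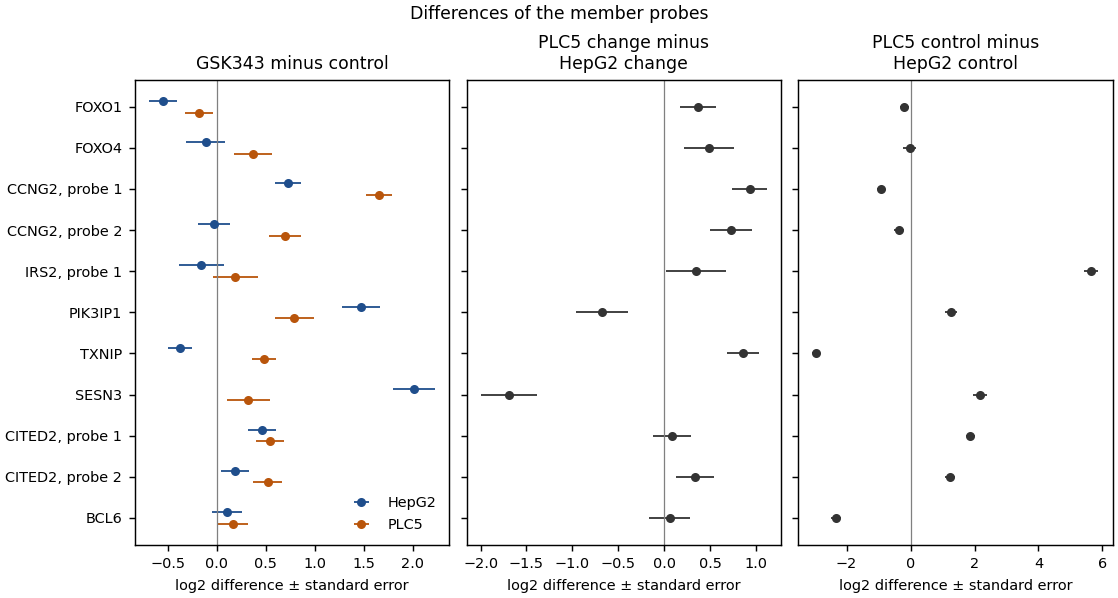
Log2 differences ± SE for 11 member probes (the second IRS2 probe is left out for its wide error): GSK343 minus control in each line (left), the PLC5 change minus the HepG2 change (middle), and PLC5 control minus HepG2 control (right). CCNG2 probe 1 lies at 0.73 and 1.66 in the left panel, TXNIP lies on opposite sides of 0 in these normalized values, and IRS2 probe 1 stands at 5.64 in the right panel.

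By mean-centred log2 intensity over the 8 arrays, the genes nearest to the brighter CCNG2 probe among 10724 candidates were SLC7A11 (a cystine transporter, root mean square difference 0.11), DHCR7 and HSD17B7 (enzymes of cholesterol synthesis, 0.15 and 0.19), ELOVL6 (a fatty acid elongase, 0.23) and PFKFB4 (an enzyme that sets fructose-2,6-bisphosphate, 0.28). SLC7A11 read 9731 and 9804 in HepG2 controls and 14780 and 14880 with GSK343. It read 5075 and 5721 in PLC5 controls and 15660 and 14320 with GSK343. As for CCNG2, the PLC5 controls were the lowest group and the treated groups overlapped. The likeness was measured on the same 8 arrays and was not tested. No member of the FOXO set was among the 5, but PIK3IP1 and SESN3 were too dim to be candidates and FOXO3 had no value.

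**Figure D3:**
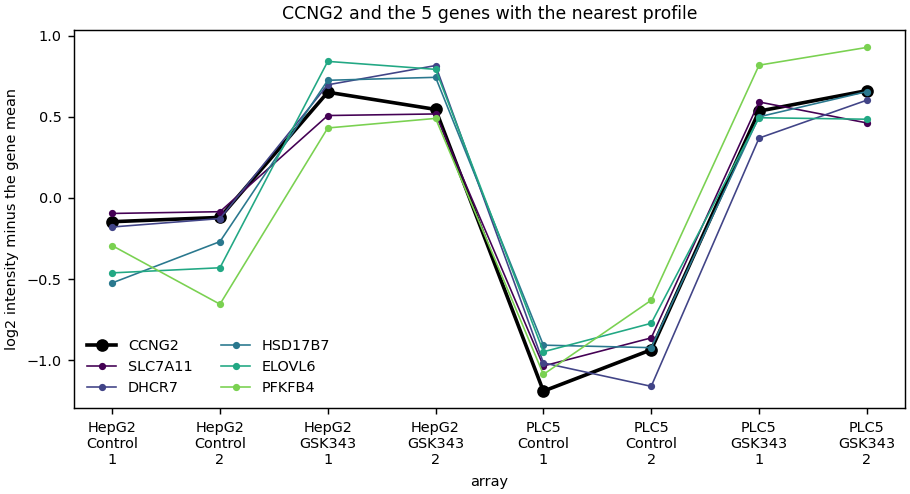
Normalized log2 intensity minus the gene's mean over the 8 arrays, for CCNG2 (thick black line) and the 5 genes with the smallest root mean square difference from it, 0.11 for SLC7A11 to 0.28 for PFKFB4. CCNG2, SLC7A11, DHCR7, HSD17B7 and ELOVL6 are lowest on the PLC5 control arrays, and all 6 genes are higher on the treated arrays of each line; lines join arrays for legibility only.

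The wider FOXO pathway was read from 109 genes that are no members, of which 105 were measured. In HepG2, 10 rose and 6 fell with GSK343 (9.52% and 5.71%, against 5.35% and 3.45% of all genes), with a median difference of 0.07 beside -0.01 for all genes. In PLC5, 7 rose and 1 fell (6.67% and 0.952%, against 0.834% and 0.235%), with a median of 0.09 beside -0.01. The HepG2 count was fragile: it dropped from 16 to 4 and 2 without HepG2 control 1 and 2, and to 1 and 3 without HepG2 GSK343 1 and 2. The split also moved with the scaling, to 6 higher and 9 lower in HepG2 and 5 higher and 3 lower in PLC5 with arrays centred on the median. Without normalization it was 37 higher and 0 lower in HepG2 and 5 higher and 0 lower in PLC5, so none of the 6 falls in HepG2 passed on that scale. These counts take each gene at its brightest probe. The PLC5 count was 3 without PLC5 GSK343 1, 4 without PLC5 control 1 and 5 without any 1 of the 4 HepG2 arrays.

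Metabolic targets of FOXO changed in opposite ways in HepG2. PCK1, which encodes the rate-limiting enzyme of gluconeogenesis, had 1421 and 1571 in HepG2 controls and 2737 and 2526 with GSK343 and rose by 0.82 ± 0.12 (adjusted p = 0.00835). APOC3, an apolipoprotein of triglyceride-rich particles, rose by 0.71 ± 0.11, and PPARGC1A, a co-activator of fasting genes, by 0.51 ± 0.12 (adjusted p = 0.0112 and 0.0336). TRIB1, a pseudokinase that restrains hepatic lipid synthesis, fell by 0.90 ± 0.13 (adjusted p = 0.00756). IGFBP1 fell as well, so 3 of 12 metabolic targets rose and 2 fell (25% and 16.7%, against 5.35% and 3.45% of all genes). In PLC5 only IGFBP1 of the 12 passed the test, and it rose (8.33%, against 0.834% of all genes).

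IGFBP1 encodes a secreted binding protein for insulin-like growth factors and is a classical FOXO1 target in liver. It had 32790 and 31420 in HepG2 controls and 22270 and 22710 with GSK343. In PLC5 it had 44510 and 48360 in controls and 143900 and 156300 with GSK343. The treated arrays lay below the controls in HepG2 and far above them in PLC5. It fell by 0.51 ± 0.09 in HepG2 (adjusted p = 0.0155) and rose by 1.69 ± 0.09 in PLC5 (3.23-fold, adjusted p = 0.000264). The HepG2 fall was -0.23 and lost its call without normalization (adjusted p = 0.363, over alternatives 0.0111 to 0.363), and it passed in 4 of 8 fits with 1 array left out. The difference between the lines was 2.21 ± 0.13 (adjusted p = 0.000398).

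Of the cell cycle targets outside the member set, those that passed the test in normalized values were lower in HepG2 and higher in PLC5 with GSK343. The target lists do not state whether FOXO raises or lowers each gene, so these directions are not read as FOXO output. The members CCNG2, CITED2 and BCL6 are left out of these counts, and CCNG2 was higher in both lines at its brighter probe. In HepG2, 3 of 11 fell (27.3%, against 3.45% of all genes) and none rose. They were KLF6, a zinc finger factor (-0.72 ± 0.13, adjusted p = 0.0163), the growth arrest gene GADD45A (-0.45 ± 0.11, adjusted p = 0.0483) and CCND1, which encodes cyclin D1 (-0.42 ± 0.10, adjusted p = 0.0384). Without normalization these read -0.28, -0.10 and -0.15 and none was called, and with 1 array left out they passed in 4, 0 and 2 of 8 fits. KLF6 had 3 further probes, of which 1 passed (-0.65, adjusted p = 0.0126) and the others read -0.38 and 0.20. In PLC5, 2 of 11 rose (18.2%, against 0.834% of all genes) and none fell. CDKN1A, which encodes the cyclin-dependent kinase inhibitor p21, had 1415 and 1202 in PLC5 controls and 3139 and 2980 with GSK343 (1.23 ± 0.12, adjusted p = 0.00196). In HepG2 it had 11540 and 11310 in controls and 11570 and 12120 with GSK343, so the treated arrays lay just above the controls and the difference of 0.05 ± 0.12 did not pass the test (adjusted p = 0.812). MXI1, an antagonist of MYC, rose by 0.74 ± 0.11 in PLC5 (adjusted p = 0.0243).

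The CDKN1A change differed between the lines by 1.18 ± 0.17 (adjusted p = 0.0311, over alternatives 0.0211 to 0.117). A second CDKN1A probe rose in PLC5 (1.10 ± 0.16, adjusted p = 0.0222) but did not pass the test for a difference between the lines (0.69 ± 0.23, adjusted p = 0.182). SESN2, a sestrin like SESN3, had 5460 and 5867 in HepG2 controls and 6256 and 5915 with GSK343. It had 6004 and 6099 in PLC5 controls and 11510 and 13240 with GSK343, and it rose there by 1.03 ± 0.11 (adjusted p = 0.00406). The groups separated in both lines by array values, widely only in PLC5. The change differed between the lines by 0.92 ± 0.16 (adjusted p = 0.0487, over alternatives 0.034 to 0.277). IGFBP1, CDKN1A and SESN2 were 3 of 105 pathway genes whose change was higher in PLC5 (2.86%, against 0.436% of all genes), and none was lower. With each of the 8 arrays left out in turn, the difference of IGFBP1 stayed called in 8 of 8 fits, that of CDKN1A in 1 and that of SESN2 in 0, where the adjusted p reached 0.15.

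Among cell death targets, BBC3, which encodes the BH3-only protein PUMA, rose in HepG2 (0.69 ± 0.17, adjusted p = 0.0451). It was 1 of 8 measured at their brightest probes (12.5%, against 5.35% of all genes). In PLC5 the mitophagy receptors BNIP3L and BNIP3 rose, 2 of 8 (25%, against 0.834% of all genes). BNIP3L had 1824 and 1524 in PLC5 controls and 3969 and 3858 with GSK343 (1.23 ± 0.14, adjusted p = 0.00624), and BNIP3 rose by 0.85 ± 0.14 (adjusted p = 0.0349). BBC3 read 0.73 in PLC5 and did not pass there (adjusted p = 0.102). The members SESN3 and TXNIP were left out of the oxidative stress targets. Of the 8 others at their brightest probes, SESN2 rose in PLC5 (12.5%, against 0.834% of all genes). None passed in HepG2, where 1 had an unadjusted p below 0.05. CAT, which encodes catalase, read 18.1 on HepG2 GSK343 2 and 15.5 on PLC5 control 1 against 7465 to 19570 on the other 6 arrays, so its fitted differences rest on single arrays. Of 8 autophagy and protein breakdown targets at their brightest probes, 1 rose in HepG2 (12.5%, against 5.35% of all genes). This was MAP1LC3B, which encodes an autophagosome protein (0.62 ± 0.14, adjusted p = 0.03). In PLC5, 0 passed, with 0 at an unadjusted p below 0.05 by limma.

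The members IRS2 and PIK3IP1 were left out of the insulin and growth factor input. Of its other genes, 2 of 22 measured rose and 1 fell in HepG2 (9.09% and 4.5%, against 5.35% and 3.45% of all genes). None passed in PLC5, where 0 were below an unadjusted p of 0.05 by limma. PIK3R3, a regulatory subunit of PI3-kinase, rose by 0.93 ± 0.17 (adjusted p = 0.0178), while its second probe read 0.21 (adjusted p = 0.401). TSC1, a brake on mTORC1, rose by 0.76 ± 0.15 (adjusted p = 0.0198). PIK3CB, a catalytic subunit of PI3-kinase, fell by 0.48 ± 0.12 (adjusted p = 0.0483), a value that became 0.02 without normalization. Of 22 FOXO modifiers and partners, the 14-3-3 gene YWHAQ rose in HepG2 (0.47 ± 0.11, adjusted p = 0.0348). That is 4.5% of the list, near the 5.35% of all genes. SKP2, a ubiquitin ligase subunit that marks FOXO1 for breakdown, fell in PLC5 (-0.57 ± 0.10, adjusted p = 0.0495), and its second probe read -0.66 (adjusted p = 0.0603). It was the 1 modifier called there (4.5%, against 0.235% of all genes called lower).

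MLXIPL, which encodes the glucose-sensing factor ChREBP that drives TXNIP transcription, rose in both lines. It had 7004 and 7177 in HepG2 controls and 11280 and 12700 with GSK343 (0.76 ± 0.13, adjusted p = 0.0124). It had 229 and 256 in PLC5 controls and 488 and 448 with GSK343 (0.95 ± 0.13, adjusted p = 0.0125). TXNIP itself was lower in HepG2 (higher without normalization) and higher in PLC5 on the same arrays. None of the other 6 glucose-sensing and thioredoxin genes passed the test in either line at its brightest probe. The 1 call is 14.3% of that list, against 5.35% of all genes in HepG2 and 0.834% in PLC5. Of 12 relatives of the members, CCNG1, the paralogue of CCNG2, rose in HepG2 by 0.42 ± 0.11 (adjusted p = 0.0459), and its second probe read 0.40 (adjusted p = 0.0701). SESN2 was the 1 relative that rose in PLC5. Each is 8.33% of the relatives, beside the same shares of all genes.

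Pathway probes other than a gene's brightest, 53 in all, gave further calls, which are named here because their values were seen. In HepG2, 4 of 53 rose and 4 fell, beside 5.35% and 3.45% of all genes at their brightest probes. No share over all probes was taken, so nothing is read from these counts. The risers were probes of ATG12, an autophagy conjugation protein (0.65 ± 0.14, adjusted p = 0.0296), GLUL, glutamine synthetase (0.79 ± 0.16, adjusted p = 0.0224), PMAIP1, which encodes the BH3-only protein NOXA (0.66 ± 0.17, adjusted p = 0.0458), and SCP2, a lipid transfer protein (0.86 ± 0.12, adjusted p = 0.00618). Those that fell were probes of ERBB3, a growth factor receptor (-0.58 ± 0.12, adjusted p = 0.0258), KLF6 as given above, MLXIP, a glucose-sensing partner of MLX (-0.71 ± 0.15, adjusted p = 0.0241), and TXN, thioredoxin (-0.50 ± 0.10, adjusted p = 0.0228). The brightest probes of ATG12, SCP2, MLXIP and TXN had the opposite sign in HepG2 (-0.11, -0.21, 0.47 and 0.18) and did not pass. In PLC5 the second CDKN1A probe was the 1 call, beside 0.834% of all genes called higher. In the difference between the lines the SCP2 probe was the 1 call (-1.01 ± 0.17, adjusted p = 0.0469), beside 0.404% of all genes called lower.

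**Figure D4:**
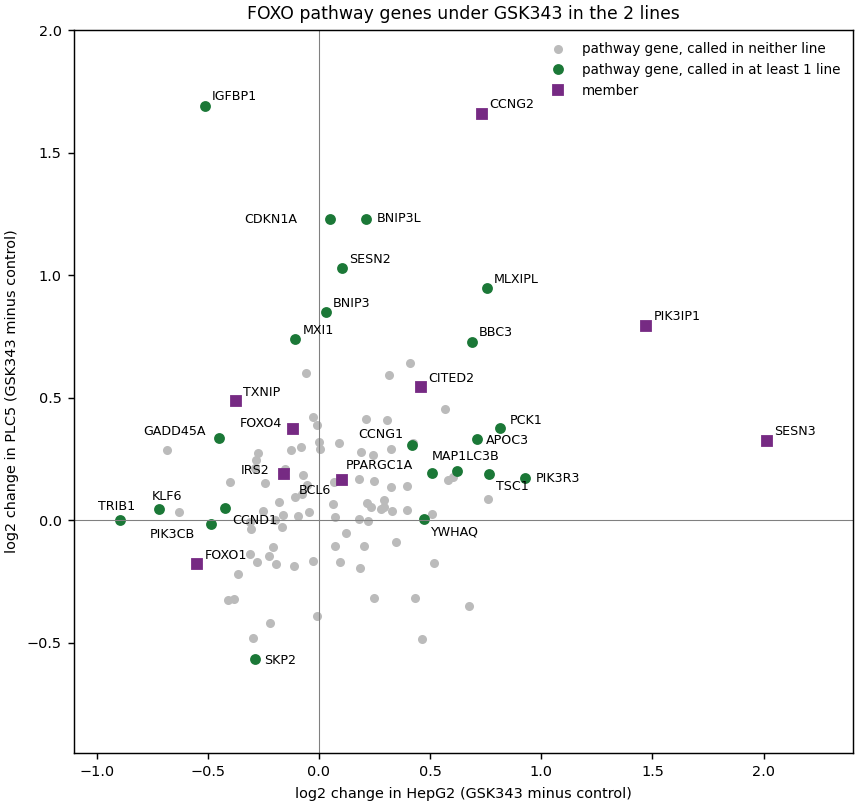
Log2 difference (GSK343 minus control) in HepG2 against PLC5 for the pathway genes (circles, green where called in at least 1 line) and the 9 measured members (purple squares). CAT lies outside the axes; IGFBP1 stands at -0.51 and 1.69, CCNG2 at 0.73 and 1.66.

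Between their control groups the lines differed in most of the pathway, as they did over all genes. PLC5 controls were higher than HepG2 controls in 34 of 105 genes and lower in 35 (32.4% and 33.3%, against 26.8% and 31.6% of all genes), and without normalization in 64 and 14. INSR, the insulin receptor, had 1939 and 1868 in HepG2 controls and 9795 and 9899 in PLC5 controls (2.37 ± 0.12, adjusted p = 3.38e-07), the same direction as the brighter IRS2 probe. PDK4, a kinase that blocks pyruvate oxidation, was dim in HepG2 controls at 44.6 and 47.6 and had 5953 and 6281 in PLC5 controls (adjusted p = 2.32e-08). SETD7, a methyltransferase that modifies FOXO3, was higher in PLC5 by 6.90 ± 0.15 (adjusted p = 2.33e-09), and the BH3-only gene PMAIP1 by 3.68 ± 0.14 (adjusted p = 5.85e-08).

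APOC3, MLXIPL and INPP5D, the last encoding a phosphatase of the PI3-kinase product, were lower in PLC5 (-4.91 ± 0.11, -4.87 ± 0.13 and -4.76 ± 0.21, adjusted p of 3.62e-09 to 1.68e-07). CDKN1A was lower in PLC5 as well (-3.13 ± 0.12, adjusted p = 5.39e-08), so its rise with GSK343 there started from a level far below that of HepG2. The lines also differed in hepatocyte markers as given above, and the part of that difference in these levels was not tested.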

How the data were processed

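Gene expression was measured on 8 one-colour arrays of HepG2 and PLC5 RNA. Per the labels, RNA was extracted with TRIzol and amplified to amino-allyl antisense RNA coupled to Cy5. The authors deposited intensity values on a linear scale, whole numbers that reach below 0, so a background had been subtracted. Neither scanner software nor array batch is given in the sources used here.

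The 8 arrays were brought to a common distribution by quantile normalization, values under 1 were set to 1, and log2 was taken. Group means were fitted with limma 3.58.1 (R 4.3.3; lmFit, eBayes with trend) and p-values adjusted by Benjamini-Hochberg across the 31741 probes. A call is an adjusted p below 0.05. Errors are standard errors of that fit. With 2 arrays a group, array number limits the precision. The platform annotation gave 1 symbol to 24740 probes, several to 977 and no symbol to 6024, and 1948 symbols were updated through RefSeq (GRCh38.p14). A gene is its brightest single-symbol probe. Normalized intensity below 64 is called dim, as a description.

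The members and lists were chosen with earlier results of these data known. Named are all members, in each comparison up to 4 called genes on each side of each list, and the 5 genes nearest to CCNG2; for the control groups a selection of these is printed. The fit was tested on simulated data. Alternatives tried were other scalings, a floor of 64, a pseudocount of 16, the dimmer 50% of probes left out, no trend, a replicate block, fewer arrays and the median of a gene's probes.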

Additional observations from a re-analysis of the deposited data

Results flagged for a closer look

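For 3 pathway genes the response to GSK343 differed between the lines by the test of that difference. The change of IGFBP1 was higher in PLC5 than in HepG2 by 2.21 on the log2 scale, with a fall in HepG2 and a rise in PLC5 on both treated arrays. The change of CDKN1A was higher in PLC5 by 1.18, and that of SESN2 by 0.92. These 2 differences did not pass the limma test in all alternatives. The adjusted p of CDKN1A was 0.115 without the trend, and that of SESN2 was 0.277 without normalization. A second CDKN1A probe did not pass for this difference either (adjusted p = 0.182). In HepG2 neither CDKN1A nor SESN2 passed the test.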

How the results depend on the processing

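The counts of called pathway genes depended on the processing. In HepG2 (16) the count was 37 without normalization, 8 with a floor of 64, 5 without the trend and 8 with the replicate block, and 1 to 13 with 1 array left out. In PLC5 (8) it was 5 without normalization, 3 without the trend, 4 with only the 4 PLC5 arrays and 3 to 6 with 1 array left out. The difference between the lines (3) gave 5 with the dimmer 50% of probes left out, 1 without the trend, 1 with the replicate block, 6 with the median of a gene's probes and 1 to 2 with 1 array left out; without normalization it split into 1 higher and 1 lower, and the 4 arrays of 1 line cannot give it. Between the controls (69) all alternatives gave 59 to 78. The 16 HepG2 calls all missed the threshold at least once when each array was left out (adjusted p up to 0.232), as did 5 of 8 in PLC5 (up to 0.206: BNIP3L, BNIP3, MXI1, MLXIPL and SKP2). Without normalization these named values changed sign: the control difference of CCNG2 (0.090), EP300 (0.29), CDKN1B (0.082), BBC3 (0.31), TXN2 (0.13), AKT2 (0.093) and CCNG1 (0.0084), and the HepG2 change of TXNIP (0.12) and PIK3CB (0.019); with the median of probes so did EP300 (0.017), TNFSF10 (-0.29) and AKT2 (0.67), and the PLC5 change of BCL6 ran from -0.057 to 0.39 with 1 array left out. Member values that had not passed changed sign too without normalization: the control differences of FOXO1 (0.80) and FOXO4 (0.98), which then passed, and of the dimmer CCNG2 probe (0.44); the HepG2 changes of FOXO4 (0.40), the dimmer CCNG2 probe (0.41) and IRS2 (0.34); and the line differences of FOXO1 (-0.03), IRS2 (-0.16), CITED2 (-0.43 and -0.16) and BCL6 (-0.23). The replicate numbers did not pair the arrays (correlations of deviations -0.114 to 0.009), so the block is given as counts only. The cause of these shifts was not tested. Probes at background, such as SESN3 in HepG2 controls, limit any fold.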
